A study of Mus musculus with 12 samples.

Results

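Glucose is broken down to pyruvate by the enzymes of glycolysis, and cells short of oxygen raise the transcripts of many of these enzymes. The 34 mouse genes described here are the transporters, enzymes and flux regulators of that pathway together with the oxygen sensors and other textbook targets of the hypoxia response. The rule names them by symbol and uses no measured value, but members were chosen with earlier results of these data known. Among the 34, 3 carry glucose or lactate across the membrane, 16 are glycolytic enzymes or lactate dehydrogenase, 3 control flux through the pathway, 3 sense oxygen or carry the signal, and 9 are other hypoxia response genes. All 34 matched a row among the 53700 gene identifiers of the count table. Of these, 33 passed a filter on low counts, as did 15014 genes in all. The gene that did not pass was Slc2a3 (ENSMUSG00000003153), another glucose transporter, which had 16 reads over the 12 libraries.

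The libraries came from intrahepatic cholangiocyte organoids, which are cultures of bile duct epithelium grown from liver tissue, taken at passage 5 without treatment. Livers of 3 Jag1 Ndr/Ndr mice (1219, 1220 and 1224) and 3 wild-type (WT) mice (1221, 1223 and 1225) each gave a hilar culture, from the region where the large ducts enter, and a peripheral culture. The 4 groups are therefore Ndr hilar, WT hilar, Ndr peripheral and WT peripheral, with 3 libraries each. Jag1 encodes a Notch ligand whose human counterpart is mutated in most people with Alagille syndrome, a disorder with too few bile ducts, and the Ndr allele is a missense change present in every cell of the mouse, so the level of Jag1 transcripts does not check the labels. No label gives the ages of the mice, and the cultures hold epithelium without the vessels and stroma that surround ducts in the liver.

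In normal oxygen, prolyl hydroxylases of the Egln family mark the transcription factor subunit HIF1A for destruction. When oxygen is short, HIF1A escapes this mark and binds DNA at the core letters ACGTG or GCGTG near genes that raise glucose uptake, shift pyruvate to lactate, and promote vessel growth. HIF1A is set mostly at the level of the protein, so its own transcript need not follow its targets, while Egln3 and several other members are themselves targets.

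Promoter sequences were read from RefSeq for 32 of the 34 genes (GRCm38.p6, 250 bases before to 50 after the start of a transcript, 300 bases in all). The 5 printed here belong to the members whose expression the results below turn on. Pfkp and Adm followed the average of the other members most closely among those with a sequence. Among the members, Egln3 and Eno2 had the smallest p-values between regions, and Hk2 had the smallest between genotypes. Each is given 5′ to 3′ on the strand of its gene, with the core letters ACGTG or GCGTG, or their reverse complements CACGT and CACGC, in capitals.
Pfkp (chr13:6648722-6649021, minus strand): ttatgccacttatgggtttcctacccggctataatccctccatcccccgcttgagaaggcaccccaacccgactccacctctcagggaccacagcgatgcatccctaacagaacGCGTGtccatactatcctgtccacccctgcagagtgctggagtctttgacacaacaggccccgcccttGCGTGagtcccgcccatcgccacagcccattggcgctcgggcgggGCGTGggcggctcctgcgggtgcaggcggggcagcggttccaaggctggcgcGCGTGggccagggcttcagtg
Adm (chr7:110627407-110627706, plus strand): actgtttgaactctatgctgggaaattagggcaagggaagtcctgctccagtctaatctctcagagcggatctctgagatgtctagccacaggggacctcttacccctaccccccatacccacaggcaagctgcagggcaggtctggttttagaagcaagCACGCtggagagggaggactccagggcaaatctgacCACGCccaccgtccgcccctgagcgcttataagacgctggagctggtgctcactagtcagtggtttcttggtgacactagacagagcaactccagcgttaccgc
Egln3 (chr12:54203825-54204124, minus strand): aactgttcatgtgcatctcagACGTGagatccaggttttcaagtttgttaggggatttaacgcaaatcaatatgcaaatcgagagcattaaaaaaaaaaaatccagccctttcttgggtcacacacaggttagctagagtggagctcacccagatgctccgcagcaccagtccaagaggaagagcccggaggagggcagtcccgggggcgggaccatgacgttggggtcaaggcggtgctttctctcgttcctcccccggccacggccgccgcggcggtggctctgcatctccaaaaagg
Hk2 (chr6:82774405-82774704, minus strand): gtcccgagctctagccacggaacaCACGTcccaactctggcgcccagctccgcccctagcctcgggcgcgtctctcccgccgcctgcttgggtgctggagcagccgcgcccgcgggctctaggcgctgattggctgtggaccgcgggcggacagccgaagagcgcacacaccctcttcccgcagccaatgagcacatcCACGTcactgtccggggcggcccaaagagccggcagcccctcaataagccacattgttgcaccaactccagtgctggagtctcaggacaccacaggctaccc
Eno2 (chr6:124769624-124769923, minus strand): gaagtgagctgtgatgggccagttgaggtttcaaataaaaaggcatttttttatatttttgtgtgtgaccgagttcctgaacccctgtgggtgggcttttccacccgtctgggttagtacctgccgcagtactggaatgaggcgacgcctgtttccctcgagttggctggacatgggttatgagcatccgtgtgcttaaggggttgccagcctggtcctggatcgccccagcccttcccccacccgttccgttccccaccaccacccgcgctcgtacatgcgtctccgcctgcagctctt
The Pfkp window holds 4 such cores, those of Adm and Hk2 hold 2 each, that of Egln3 holds 1 and that of Eno2 none. At least 1 core was present in 29 of the 32 members with a window (90.6%), against 67.8% of the 9993 tested genes with a window and 46.7% of the 27025 genes in the whole table. At least 2 in a window were found in 24 members (75.0%), against 38.5% of the tested genes. Matches on opposite strands can overlap, and the Ldha window, with 7, holds such overlaps. Eno2, Gpi1 and Tpi1 had none. These counts describe letters and are not evidence of binding.

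Libraries held 6708822 to 16030880 counts each. Replicates within a group correlated at r from 0.897 to 0.963 across genes on the log2 scale. The 12 cholangiocyte markers, among them Krt19, Epcam and Sox9, summed to 11623 to 21243 CPM (read counts scaled to a common library size) over the 12 libraries, while the 9 endothelial markers summed to at most 0.618 CPM and the 11 fibroblast and stellate markers to at most 6.61 CPM. Hepatocyte markers summed to 8.29 to 187 CPM, immune markers to 9.90 to 40.1 CPM and mesothelial markers to 37.5 to 658 CPM. No read was counted in any library for 1 of the 12 hepatocyte, 2 of the 11 fibroblast and stellate, 3 of the 9 endothelial and 4 of the 9 immune markers. Of the 4 mesothelial markers 2 passed the filter. Msln held nearly all of that sum, at 102 to 601 CPM in Ndr and 37.4 to 658 CPM in WT libraries, which overlapped. Wt1 was at 0 to 26.0 CPM in Ndr libraries, highest in Ndr peripheral 1224, and at 0 in all 6 WT libraries. The other markers, Upk3b and Lrrn4, reached at most 2.48 and 0.628 CPM, so this list does not settle whether mesothelial cells were present. The part of any such cells in the genotype comparisons was not tested. Because these are bulk cultures, fewer cells that express a gene and less of its RNA per cell cannot be told apart.

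Most of the genes were high or low in the same libraries. When the log2 CPM of each gene was centred on its mean over the 12 libraries and averaged over the 33 tested members, Ndr hilar libraries had values of -0.30, -1.56 and -0.33 for mice 1219, 1220 and 1224, against -0.81, -0.12 and 0.51 in WT hilar libraries of mice 1221, 1223 and 1225. Ndr peripheral libraries had -0.17, 0.17 and 1.04, against 0.70, -0.11 and 0.97 in WT peripheral libraries, with the mice in the same order. Group means on this scale were -0.73 ± 0.72 in Ndr hilar, -0.14 ± 0.66 in WT hilar, 0.35 ± 0.62 in Ndr peripheral and 0.52 ± 0.56 in WT peripheral cultures (SD, n = 3 each). The ranges of Ndr and WT overlapped within each region, and so did those of hilar and peripheral cultures within WT. In Ndr cultures all 3 hilar values lay below all 3 peripheral values, by as little as the gap between -0.30 and -0.17, both from mouse 1219.

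**Figure D1:**
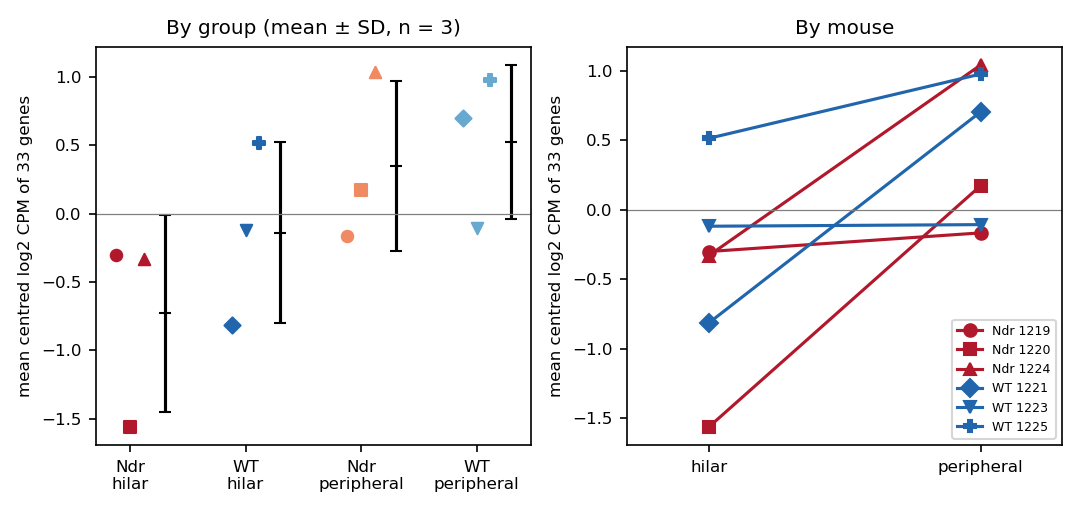
Mean centred log2 CPM of the 33 tested genes (y axis), on the left by group with each library as a point and the mean ± SD (n = 3) as a bar, and on the right with the hilar and peripheral cultures of each mouse joined by a line. Hilar values lie below peripheral values in all 6 mice, with differences from -1.73 in mouse 1220 to -0.01 in mouse 1223.

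A single library, Ndr hilar 1220, stood apart. It held the lowest CPM of all 12 libraries for 24 of the 33 members, and Ndr hilar 1219 was lowest for a further 5. At the top end, Ndr peripheral 1224 was highest for 15 members and WT peripheral 1225 for 12, and both mice have the same derivation date in the labels. The ratio of the highest to the lowest library had a median of 5.31 over the members. It was 132 for Ndrg1, 78.0 for the lactate exporter Slc16a3 and 29.6 for the carbonic anhydrase Car9, and in all of these the lowest library was Ndr hilar 1220. The member medians of the comparisons below are therefore also given without this library, or without its mouse for mouse totals, where it bore on them. Counts over the further gene lists are not given without it.

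**Figure D2:**
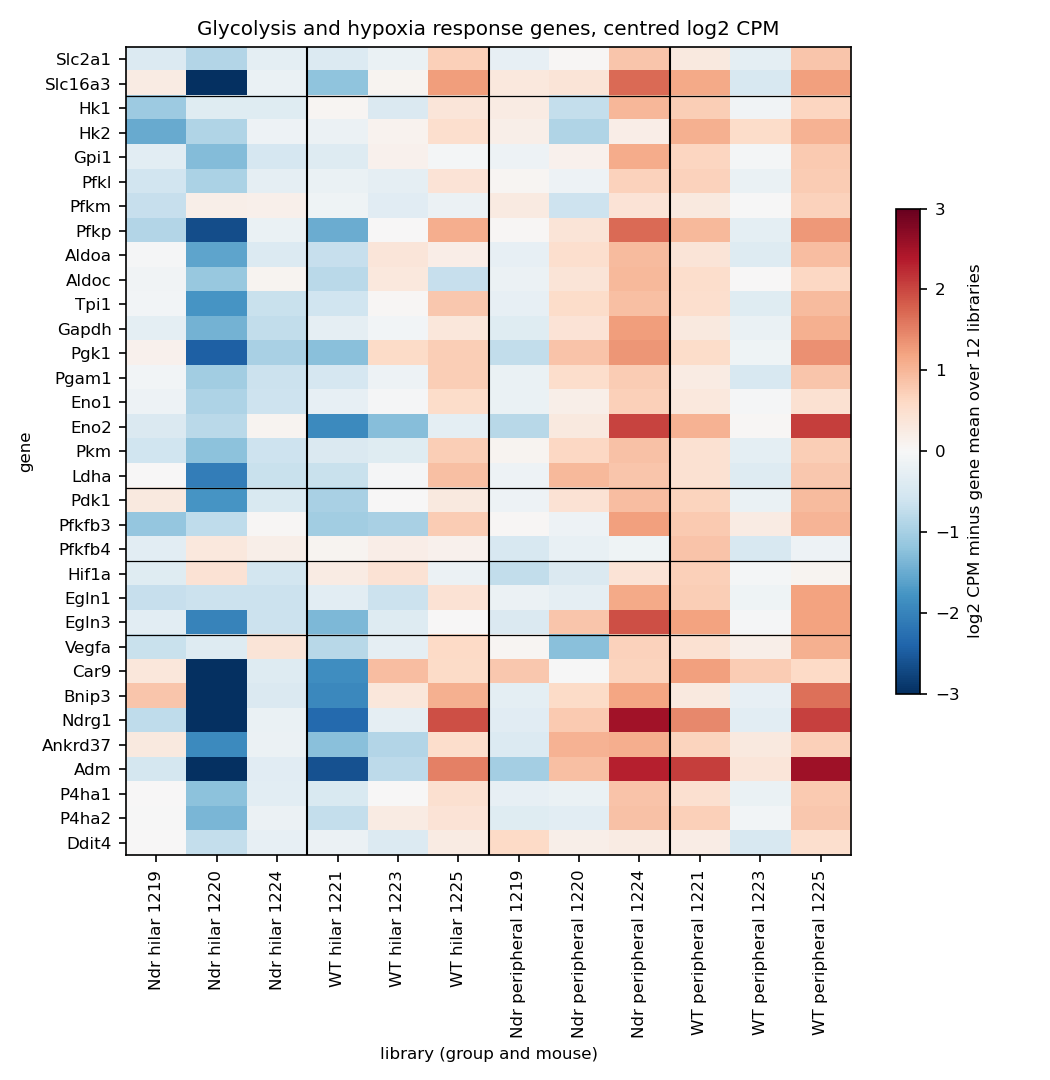
Centred log2 CPM of 33 genes (rows, grouped by role between horizontal lines) in 12 libraries (columns, by group and mouse). Colour runs from blue (3 log2 units below the mean of a gene) to red (3 above); the Ndr hilar 1220 column is blue for most genes, while Hif1a, Pfkfb4 and Pfkm stand out as rows that do not follow the others.

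Over all member pairs, the median Pearson r across the 12 libraries was 0.76, and 94.5% of pairs were positive; without Ndr hilar 1220 the median was 0.71. These correlations describe genes that share libraries and depth, and carry no test. Pfkp (platelet-type phosphofructokinase) and Ndrg1 (a stress-induced gene) tracked the mean of the other members at r = 0.978. Adm (the vasodilator peptide adrenomedullin) did so at 0.974, P4ha1 (a collagen prolyl hydroxylase) at 0.963 and Pdk1 (the kinase that inhibits pyruvate dehydrogenase) at 0.954. At the other end were Vegfa at 0.600, Pfkm at 0.306, Hif1a at 0.063 and Pfkfb4 at -0.03. The member average also followed the average of 38 other hypoxia response genes that are not members (r = 0.985, n = 12 libraries). It followed 25 proliferation genes less closely (r = 0.635, and 0.497 without Ndr hilar 1220), and it showed r = 0.116 with total counts (-0.132 without that library) and r = 0.012 with the 13 mitochondrially encoded genes (-0.114 without it).

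Glucose enters and lactate leaves the cell through transporters. Slc2a1 (ENSMUSG00000028645), the main glucose importer of most epithelia, had 169.6, 123 and 186 CPM in Ndr hilar cultures, against 171, 199 and 374 CPM in WT hilar cultures. It had 192, 233 and 403 CPM in Ndr peripheral cultures, against 277, 186 and 405 CPM in WT peripheral cultures. The Ndr and WT ranges overlapped in both regions, whereas the 3 Ndr hilar values all lay below the 3 Ndr peripheral values. Slc16a3, which exports lactate, had 103, 3.66 and 76.3 CPM in Ndr hilar cultures, against 37.6, 93.3 and 209 CPM in WT hilar cultures. Its peripheral values were 109, 115 and 285 CPM in Ndr and 194, 62.7 and 207 CPM in WT. Slc2a3 was at 0 in all 3 WT hilar libraries and at most 1.44 CPM elsewhere, and per kilobase of exon it averaged 0.0228 CPM against 69.3 CPM for Slc2a1.

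Among the enzymes, levels per kilobase of exon were ranked by the reads counted on the gene itself. Aldolase A (Aldoa) was highest, at 491 CPM per kb over all libraries. Pyruvate kinase (Pkm, 349), lactate dehydrogenase A (Ldha, 334) and triose phosphate isomerase (Tpi1, 262) followed. This order leaves out reads on near-identical copies, which took most reads of Gapdh, Pgk1 and Eno1, so their places in it are uncertain. Where the list holds sister enzymes, 1 form was higher on the same per-length scale. Pfkl, the liver-type phosphofructokinase, was at 55.0 CPM per kb against 10.8 for the muscle type Pfkm and 9.44 for Pfkp. Lengths here join all exons of a gene in GENCODE M21, which may not be those used for counting. Pfkp had 13401 such bases against 3340 for Pfkm. Its mean CPM was higher, at 126 against 36.2, so the order of Pfkm and Pfkp is uncertain. Aldoa exceeded the brain-type Aldoc at 22.2. Eno1 was at 70.8 against 1.57 for the neuronal enolase Eno2. Hexokinases 1 and 2, which trap glucose by phosphorylation, were closer, at 17.3 for Hk1 and 12.8 for Hk2, as were P4ha1 at 26.6 and P4ha2 at 14.7. The oxygen sensor Egln3 stood at 142 CPM per kb against 24.1 for its relative Egln1.

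The counts of 9 members can be split with near-identical copies elsewhere in the genome, such as processed pseudogenes (at least 95% identity over at least 200 bases). For Gapdh, 97.3% of the reads counted on the gene or its 75 copies were on the copies. The share was 85.0% for Pgk1, 79.7% for Eno1, 47.5% for Pgam1, 34.5% for Gpi1, 23.4% for Pkm, 20.5% for Bnip3, 9.01% for Ldha and 3.15% for Tpi1. The low printed levels of Gapdh and Pgk1, and the order of the enzymes by level given above, are therefore uncertain. Gapdh with its copies averaged 1588 ± 500.5 CPM in Ndr hilar, 3047 ± 1121 in WT hilar, 3941 ± 1609 in Ndr peripheral and 3949 ± 1789 CPM in WT peripheral cultures (SD, n = 3 each). The Pfkp transcript matched a transcript of Pitrm1 at the same limits, and that of Ndrg1 matched Gm17035, so these counts are uncertain as well. Matches of Pkm (Gm49759), Bnip3 (Gm45507 and AC160336.1) and Gapdh (Vmn2r60, Gm3839 and Gm10358) were also left out of the copies. Adding the copies back changed no call and left the medians below within 0.01 of those given.

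Hilar and peripheral cultures were compared first over both genotypes. The edgeR estimate was lower in hilar cultures for 32 of 33 members, with a median log2 difference of -0.73 (hilar minus peripheral), while the median over all 15014 genes was 0.02, and 47.8% of all genes were lower. No member and no other gene passed an adjusted p of 0.05 (edgeR quasi-likelihood test with Benjamini-Hochberg adjustment; 0% of genes called). At an unadjusted p under 0.05 there were 14 members, all lower in hilar cultures, against 6.07% of all genes in either direction and 3.37% lower. DESeq2 gave 17 members at that level (7.43% of all genes) and limma-voom 15 (6.31%). Neither called a member after adjustment, where DESeq2 called 3 genes in all and limma-voom 0. Without Ndr hilar 1220 the median was -0.59 and 6 members were at the unadjusted level, as were 4.72% of all genes. That number was also 6 without WT hilar 1221 (4.26% of all genes) or without Ndr peripheral 1224 (3.9%), 8 without WT peripheral 1225 (4.07%) and 9 without WT hilar 1223 (6.1%). It was 19 without Ndr peripheral 1219 (8.14%) or without WT peripheral 1223 (6.72%), and 21 without WT hilar 1225 (10.5%).

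Egln3 (ENSMUSG00000035105), the hypoxia-induced prolyl hydroxylase that marks HIF1A, had the smallest p among the members. Its hilar values were 229.9, 71.1 and 184 CPM in Ndr and 113, 221 and 288 CPM in WT cultures. Its peripheral values were 211, 509 and 1104 CPM in Ndr and 669, 279 and 659 CPM in WT cultures. The WT ranges overlapped only in the stretch from 279 to 288 CPM, and the Ndr ranges overlapped through mouse 1219. The log2 difference was -1.64 (SE 0.44, unadjusted p = 0.00345, adjusted p = 0.786, edgeR), and hilar was lower in 5 of 6 mice.

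Eno2 (ENSMUSG00000004267), a low-abundance enolase in these cultures, had 3.77, 2.87 and 5.49 CPM in Ndr hilar and 1.22, 2.01 and 4.15 CPM in WT hilar cultures. Peripheral cultures had 2.79, 6.32 and 21.7 CPM in Ndr and 10.8, 5.26 and 22.5 CPM in WT. The 3 WT hilar values lay below the 3 WT peripheral values, and the Ndr ranges overlapped. Its log2 difference over both genotypes was -1.87 (SE 0.54, unadjusted p = 0.00537, adjusted p = 0.786, edgeR). Gpi1, which converts glucose 6-phosphate to fructose 6-phosphate, had a log2 difference of -0.86 (SE 0.27, unadjusted p = 0.00830). Its hilar values were 289, 147 and 253 CPM in Ndr and 275, 394 and 345 CPM in WT, against 323, 394 and 779.5 CPM in Ndr and 566, 345 and 618 CPM in WT peripheral cultures.

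Egln1 (ENSMUSG00000031987), the main oxygen sensor in most tissues, came next. It had 47.6, 48.9 and 49.5 CPM in Ndr hilar, 62.0, 49.4 and 104 CPM in WT hilar cultures, 67.7, 63.8 and 170.4 CPM in Ndr peripheral and 128, 70.1 and 179 CPM in WT peripheral cultures. All Ndr hilar values lay below all Ndr peripheral values, and the hilar culture was lower in each of the 6 mice (log2 difference -0.93, SE 0.31, unadjusted p = 0.0119, adjusted p = 0.786, edgeR). The other 10 members at the unadjusted level were Pkm, Gapdh, Pfkl, Hk2, Aldoc, Pfkfb3, Adm, Ankrd37, Hk1 and Pfkp, with log2 differences between -2.04 for Adm and -0.64 for Pfkl. Pfkfb3 makes the sugar phosphate that activates phosphofructokinase, and Ankrd37 is a small ankyrin-repeat protein induced by hypoxia.

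**Figure D3:**
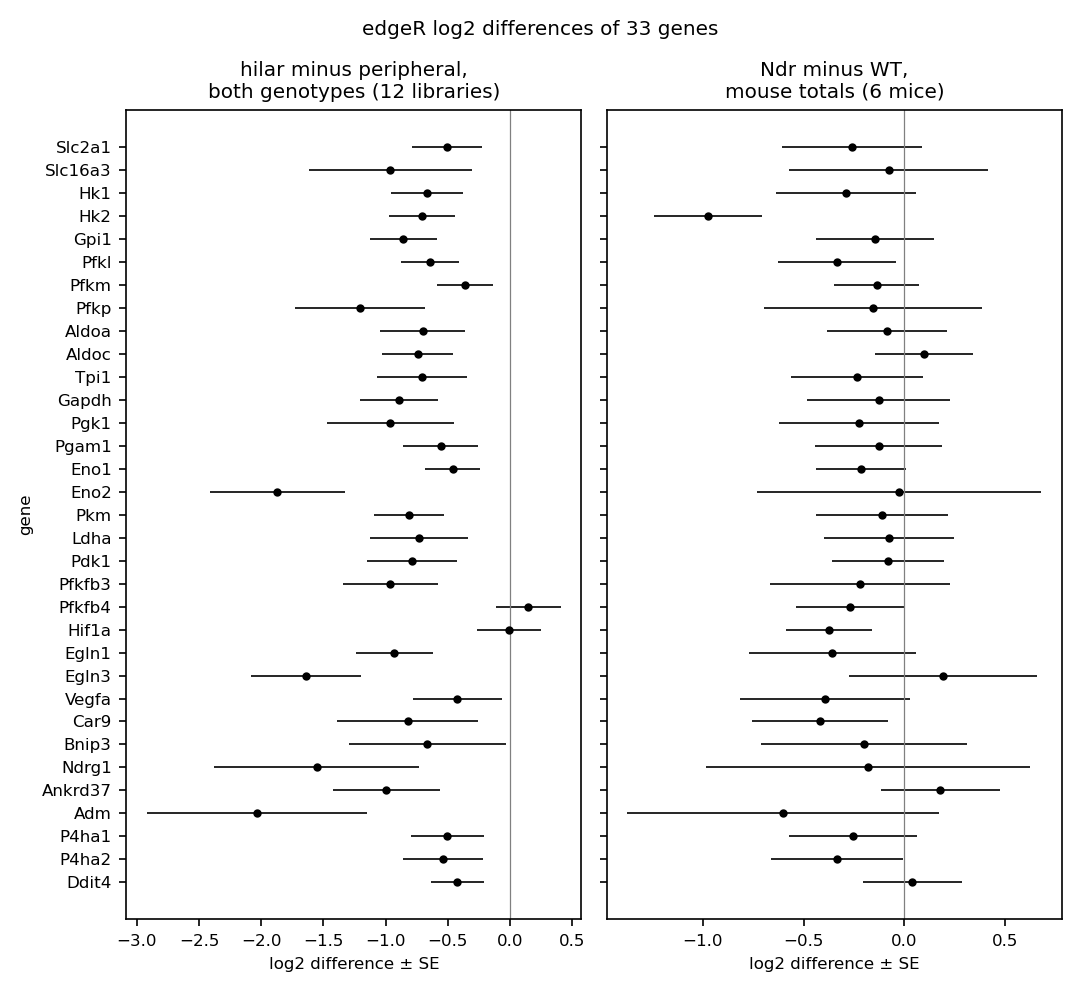
edgeR log2 differences with SE for 33 genes (y axis): on the left hilar minus peripheral over both genotypes (12 libraries), on the right Ndr minus WT from mouse totals (6 mice). On the left 32 of 33 points lie below 0, from -2.04 for Adm to 0.15 for Pfkfb4; on the right 29 of 33 points lie below 0, from -0.98 for Hk2 and -0.60 for Adm to 0.19 for Egln3.

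Within mice, the region difference varied in size. The member average was lower in the hilar than in the peripheral culture of every mouse, with hilar minus peripheral differences of -0.13, -1.73 and -1.37 in Ndr mice 1219, 1220 and 1224 and of -1.52, -0.01 and -0.46 in WT mice 1221, 1223 and 1225. The differences were smallest in Ndr 1219 and WT 1223, where 15 and 12 of 33 members were lower in the hilar culture and the medians were 0.07 and 0.12. All 33 members were lower in WT 1221, 32 in Ndr 1224, 29 in WT 1225 and 28 in Ndr 1220. Over all genes, the share lower in the hilar culture ran from 47.1% in WT 1221 to 52.8% in WT 1225. Hk2, Pfkl, Pkm, Pfkfb3 and Egln1 were lower in the hilar culture of 6 of 6 mice, which is 5 of 33 members against 1.37% of all genes, and a further 13 were lower in 5 of 6, against 11.2% of all genes. No member was higher in 6 of 6, against 1.15% of all genes.

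Within Ndr cultures alone, 31 of 33 members had lower estimates in hilar than in peripheral organoids (51.3% of all genes), with a median log2 difference of -1.03 against -0.01 over all genes. None passed adjustment (0% of genes), and 11 reached an unadjusted p under 0.05, all lower, against 10.3% of genes in either direction and 5.7% lower. In place of 11, there were 2 without Ndr hilar 1220 (median -0.69, 5.34% of all genes), 1 without Ndr peripheral 1224 (median -0.59, 6.95%) and 19 without Ndr peripheral 1219 (median -1.19, 12%), and 17 were at that level with DESeq2 (12.3%). Pkm (ENSMUSG00000032294), which makes pyruvate in the last step of glycolysis, had 1043, 678 and 1034 CPM in Ndr hilar cultures against 1685, 2449 and 2915 CPM in Ndr peripheral cultures. These ranges did not overlap, and the log2 difference was -1.36 (SE 0.41, unadjusted p = 0.00640, adjusted p = 0.418, edgeR). Egln3 followed at -1.91 (SE 0.63), then Gapdh at -1.33 (SE 0.45) and Gpi1 at -1.12 (SE 0.38), all at an adjusted p of 0.418. Groups did not overlap for 8 members (Ddit4, Egln1, Gpi1, Pfkl, Pfkp, Pkm, Slc16a3 and Slc2a1), all lower in hilar cultures, against 7.93% of all genes lower and 7.49% higher. Of the 16 enzymes 9 were at the unadjusted level, none of the 9 other hypoxia response genes was, and the median of those 9 was -0.80.

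Within WT cultures all 33 members had lower estimates in hilar organoids (46.1% of all genes), with a median of -0.48 against 0.03 over all genes. Eno2 alone was at an unadjusted p under 0.05, where 0.506% of all genes were (0.22% lower), and 0% of genes passed adjustment (adjusted p = 1 for Eno2, log2 difference -2.40, SE 0.79, unadjusted p = 0.0108). Egln3 had a log2 difference of -1.37 (SE 0.62), Hk2 one of -0.74 (SE 0.37) and Egln1 one of -0.81 (SE 0.44). Eno2, Hk2 and Pfkm were the 3 members whose WT hilar and WT peripheral values did not overlap, all lower in hilar cultures, against 2.6% of all genes lower and 2.94% higher. The median moved to -0.15 without WT hilar 1221 and to -0.25 without WT peripheral 1225, with 28 and 26 members lower, and to -0.71 without WT hilar 1225 or without WT peripheral 1223. At the unadjusted level there were then 1, 0, 6 and 3 members in that order, against 2.44%, 0.734%, 1.24% and 0.752% of all genes. Without WT hilar 1223 there were 2 (1.33%). The difference between the region effects of Ndr and WT cultures was itself tested: 27 of 33 members had a lower hilar-minus-peripheral difference in Ndr (53.9% of all genes), with a median of -0.44 against -0.05 over all genes. No member was past an unadjusted p of 0.05, where 3% of genes were (1.92% lower), and 0% of genes passed adjustment. Without Ndr peripheral 1224, 1 member was past that unadjusted level (3.6% of all genes), and the median then turned to 0.03. The median was -0.18 without Ndr hilar 1220 (22 of 33 lower), -0.13 without WT hilar 1225 and -0.21 without WT peripheral 1223, against -0.73 without Ndr hilar 1219 and -0.67 without WT hilar 1221. Pkm was nearest, at -1.08 (SE 0.57, unadjusted p = 0.0813, adjusted p = 0.994, edgeR). The comparisons share groups (Ndr hilar cultures enter both the region effect in Ndr and the genotype effect in hilar organoids), so their values stand side by side and not as separate support.

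Genotype was compared within each region and over both. In hilar organoids 29 of 33 members had a lower edgeR estimate in Ndr than in WT (50.5% of all genes), with a median log2 difference of -0.57 (Ndr minus WT) against -0.0046 over all genes, and the exceptions were Ankrd37, Aldoc, Pfkm and Eno2. No gene passed adjustment (0%), and 1 member reached an unadjusted p under 0.05, where 6.54% of genes did (3.68% lower). DESeq2, which called 42 genes in all, called no member. The median was -0.35 without Ndr hilar 1220 and -0.23 without WT hilar 1225, and no member then reached the unadjusted level (3.35% and 3.37% of all genes). It was -0.76 without Ndr hilar 1219, with 4 members at that level (8.2%), and -0.77 without WT hilar 1221, with 3 (13%). DESeq2 gave 3 members at that level (8.48%), RLE scaling 3 (6.75%) and limma-trend on the deposited normalized values 8 (28.9%). Gapdh, Pfkl and Pkm were the 3 members whose Ndr and WT values did not overlap, all lower in Ndr, against 4.18% of all genes lower and 4.57% higher. For Pkm the Ndr hilar values given above, up to 1043 CPM, compare with 1170.1, 1232 and 2635 CPM in WT hilar cultures (log2 difference -0.87, SE 0.40, unadjusted p = 0.0524). Pfkl had 231, 178 and 286 CPM in Ndr hilar and 298, 287 and 456 CPM in WT hilar cultures, so that the groups met at 286 and 287 CPM. Its log2 difference was -0.58 (SE 0.33), and that of Eno1 was -0.67 (SE 0.31).

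Hk2 (ENSMUSG00000000628) was the member with the smallest unadjusted p between genotypes in both regions. It encodes the inducible hexokinase of muscle and growing cells. Ndr hilar cultures had 23.4, 35.7 and 60.5 CPM, against 59.8, 72.4 and 94.8 CPM in WT hilar cultures, and the ranges overlapped only through Ndr 1224 and WT 1221. Ndr peripheral cultures had 76.2, 36.1 and 77.7 CPM, against 142, 98.4 and 139 CPM in WT peripheral cultures, with no overlap. The log2 differences were -0.93 (SE 0.38, unadjusted p = 0.0320, adjusted p = 0.750) in hilar and -0.998 (SE 0.38, unadjusted p = 0.0223, adjusted p above 0.99) in peripheral organoids by edgeR. With the reads of a mouse summed, Ndr mice had 48.1, 35.1 and 70.9 CPM and WT mice 95.3, 87.1 and 120.6 CPM, and the log2 difference was -0.98 (SE 0.27, unadjusted p = 0.00849, adjusted p = 0.769). Leaving out each mouse in turn gave -1.28 to -0.75. Hk1 had 63.8, 106 and 106 CPM in Ndr hilar against 141, 101 and 176 CPM in WT hilar cultures, and overlapped in both regions.

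**Figure D4:**
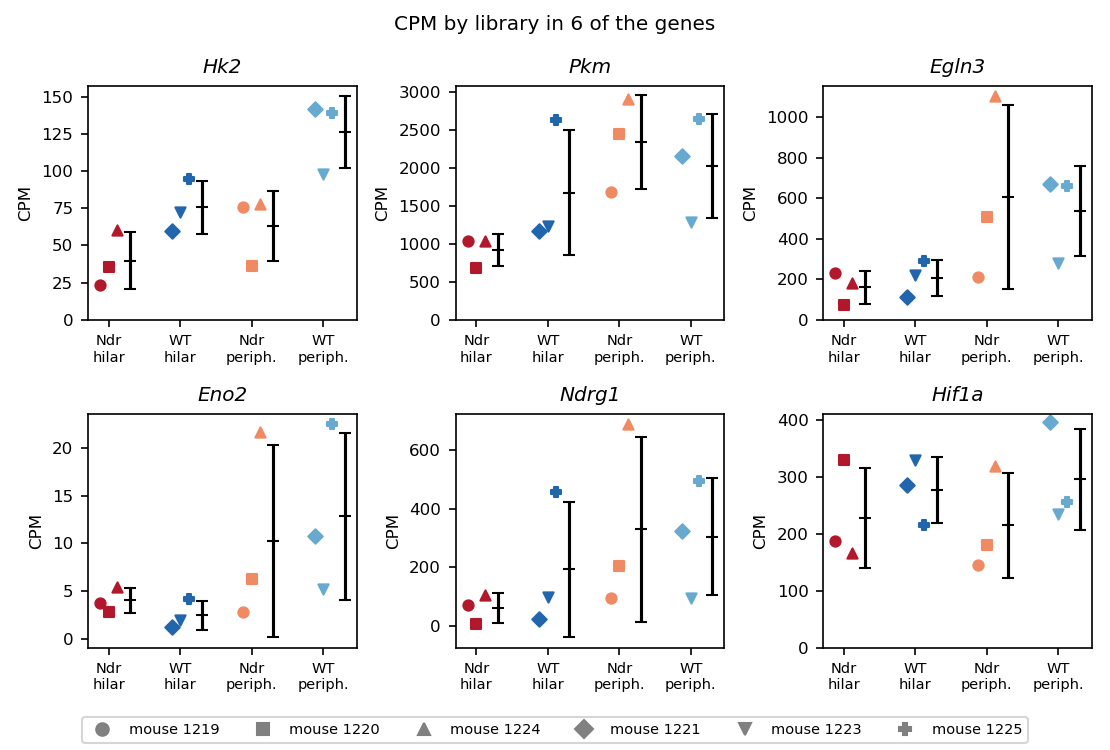
CPM by library (y axis, linear from 0 or just below) for 6 genes in Ndr hilar, WT hilar, Ndr peripheral and WT peripheral cultures, with a marker shape for each mouse and bars for the mean ± SD (n = 3). Hk2 is lower in Ndr than in WT within each region (means 39.9 and 75.7 CPM hilar, 63.3 and 127 CPM peripheral). Egln3 and Eno2 spread most among peripheral cultures, and Hif1a shows no order by region. Ndrg1 also spreads widely among WT hilar cultures (SD 232 CPM, against 200 CPM in WT peripheral cultures).

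In peripheral organoids the members were split, 19 lower and 14 higher in Ndr (45.5% of all genes lower), with a median of -0.07 against 0.03 over all genes. Hk2 was the 1 member at an unadjusted p under 0.05, where 2.92% of genes were (1.47% lower), and also the 1 member whose groups did not overlap, against 3.61% of genes lower in Ndr and 5.41% higher. No gene passed adjustment (0%). The next members, none past an unadjusted p of 0.05, were Pfkfb4 at -0.48, Hif1a at -0.46 and Vegfa at -0.58. The median was -0.51 without Ndr peripheral 1224, with 3 members at the unadjusted level (4.32% of all genes), and 0.18 without WT peripheral 1225, with none (2.73%), so that its sign rests on single libraries. Over both regions, from mouse totals, 29 of 33 members were lower in Ndr (50.7% of all genes), with a median of -0.20 against -0.0045, Hk2 was the 1 member at the unadjusted level (5.42% of 15401 genes, 2.93% lower), and 0% of genes passed adjustment. That median was 0.18 without WT 1225, with 10 members lower and 1 at the unadjusted level (6.75%), and -0.52 without Ndr 1224, with 32 lower and 4 at that level (9.24%). Without Ndr 1220 it was -0.056, with 19 members lower and 1 at that level (3.06%). Without Ndr 1219 it was -0.065, with 20 lower and 1 at that level (4.79%).

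Only mice Ndr 1224 and WT 1225 have the same derivation date but different genotypes. Between them, 29 of 33 members were lower in Ndr in hilar cultures (median -0.76) and 14 of 33 in peripheral cultures (median 0.04), where all mice gave 29 and 19. Over all genes the median was 0.01 in hilar and 0.01 in peripheral cultures. With 1 mouse on each side these values carry no test. The other dates each hold mice of 1 genotype, so date and genotype cannot be told apart in them.

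Hif1a (ENSMUSG00000021109), the oxygen-regulated subunit of the hypoxia-inducible factor, had 188, 329 and 167 CPM in Ndr hilar, 287, 329.6 and 215 CPM in WT hilar cultures, 146, 179.8 and 320.2 CPM in Ndr peripheral and 398, 235 and 256 CPM in WT peripheral cultures. All 4 ranges overlapped, and Ndr hilar 1220, the lowest library for most members, was the highest of the Ndr hilar libraries for Hif1a. Adm had 2.998, 0 and 3.45 CPM in Ndr hilar, 0.549, 2.47 and 12.8 CPM in WT hilar cultures, 2.07, 8.39 and 22.8 CPM in Ndr peripheral and 19.2, 5.74 and 26.7 CPM in WT peripheral cultures. The 0 in Ndr hilar 1220 allows up to 0.421 CPM (3 counts over the total counts of that library without TMM scaling, counting error only). Ndrg1 had 70.3, 5.23 and 105 CPM in Ndr hilar, 23.7, 99.0 and 457 CPM in WT hilar cultures, 94.3, 205 and 689 CPM in Ndr peripheral and 325, 95.6 and 494 CPM in WT peripheral cultures. Its ranges overlapped in every comparison.

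Ldha, which turns pyruvate into lactate, had 961, 227 and 604 CPM in Ndr hilar, 604, 935 and 1788 CPM in WT hilar cultures, 864, 1866 and 1703 CPM in Ndr peripheral and 1317, 732 and 1665 CPM in WT peripheral cultures. Aldoa averaged 885 ± 417 CPM in Ndr hilar, 1318 ± 463 in WT hilar, 1809 ± 704 in Ndr peripheral and 1710.3 ± 734 in WT peripheral cultures (SD, n = 3 each). Pfkp had 51.4, 15.0 and 83.6 CPM in Ndr hilar, against 97.7, 124 and 312 CPM in Ndr peripheral cultures, with no overlap. Vegfa, the vessel growth factor, ranged from 82.3 CPM in Ndr peripheral 1220 to 408 CPM in WT peripheral 1225, and was the 1 hypoxia response gene whose lowest library was peripheral. Car9 ran from 9.93 to 294 CPM and the mitophagy receptor Bnip3 from 4.44 to 123 CPM. Ddit4, an inhibitor of growth signalling, had the smallest ratio of the highest to the lowest library (2.46), from 226 to 554 CPM.

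The other members are given by their lowest and highest library. Tpi1 ran from 186 to 1221 CPM, Pgk1 from 33.8 to 484 CPM, Pgam1 from 112 to 411 CPM and Aldoc from 30.3 to 131 CPM, all lowest in Ndr hilar 1220. Pfkm ran from 21.4 to 56.2 CPM and Pfkfb3 from 29.8 to 157 CPM, both lowest in Ndr hilar 1219. Pdk1 ran from 43.5 to 291 CPM, P4ha1 from 43.1 to 184 CPM, P4ha2 from 32.1 to 154 CPM and Ankrd37 from 2.61 to 22.3 CPM, again lowest in Ndr hilar 1220. Pfkfb4, which like Pfkfb3 sets the level of the activating sugar phosphate, stayed between 4.43 and 11.6 CPM. In mean CPM, Ndr hilar was the lowest of the 4 groups for 28 of 33 members, the exceptions being Pfkm, Aldoc, Eno2, Pfkfb4 and Hif1a. This count was not repeated without Ndr hilar 1220, the lowest library for 24 members.

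Other genes of the same pathways were read from lists. Of 40 further hypoxia response genes, 38 were tested, and 31 had lower estimates in hilar than in peripheral cultures over both genotypes (median -0.46). At an unadjusted p under 0.05 there were 12, all lower, and none passed adjustment. In this comparison 47.8% of all genes were lower, and 6.07% were at that level (3.37% lower). Mxi1, an antagonist of MYC, averaged 44.5 ± 7.36 CPM in Ndr hilar and 50.1 ± 8.29 in WT hilar cultures, against 78.7 ± 17.9 CPM in Ndr peripheral and 75.1 ± 23.2 in WT peripheral cultures (SD, n = 3 each; log2 difference -0.70, SE 0.19, unadjusted p = 0.00290, adjusted p = 0.786, edgeR). Nrn1 had a smaller p, 0.00145, but rested on Ndr peripheral 1220 and 1224 at 19.99 and 91.2 CPM, with at most 1.85 CPM in the other libraries. Of 45 further genes of glycolysis, gluconeogenesis and pyruvate use, 37 were tested, 23 had lower estimates in hilar cultures (median -0.11), and 5 were lower and 3 higher at the unadjusted level. The 2 with the smallest p were Pgm1, which feeds glycogen-derived sugar into glycolysis, at -0.91 (SE 0.27), and the pentose phosphate enzyme Tkt at -0.64 (SE 0.19). All 16 oxygen sensing genes outside the members were tested, 7 had lower estimates in hilar cultures (median 0.01), and 1, Hif3a, was at the unadjusted level (log2 difference -2.50, SE 0.83).

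For genotype in hilar organoids, 26 of the 38 hypoxia response genes had lower estimates in Ndr (median -0.34), against 50.5% of all genes. So did 27 of 37 glycolysis genes (median -0.15) and 5 of 16 oxygen sensing genes (median 0.05). Angptl4, a hypoxia-induced lipase inhibitor, had the smallest p of these lists, with 16.2, 6.53 and 10.9 CPM in Ndr hilar cultures against 30.3, 24.9 and 28.5 CPM in WT hilar cultures. These ranges did not overlap, and 4.18% of all genes were likewise lower in Ndr without overlap. The log2 difference of Angptl4 was -1.31 (SE 0.48, unadjusted p = 0.0185, adjusted p = 0.750, edgeR). In peripheral organoids the numbers lower in Ndr were 22 of 38, 15 of 37 and 7 of 16 in the same order of lists. Over all genes 45.5% were lower there.

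Proliferation genes varied with the members in part of the libraries. Their summed level was 641 to 1074 CPM in Ndr hilar and 660 to 4013 CPM in WT hilar cultures, against 1594 to 2829 CPM in Ndr peripheral and 1361 to 1713 CPM in WT peripheral cultures. All 25 had lower estimates in hilar than in peripheral organoids within Ndr (median log2 difference -1.80), as had 51.3% of all genes. Of the 25, 16 were at an unadjusted p under 0.05, against 10.3% of all genes (5.7% lower). Over both genotypes all 25 were also lower (median -0.71, 47.8% of all genes), with 1 at that level (6.07%). Within WT all 25 had higher hilar estimates (median 0.35), where 46.1% of all genes were lower. None was at that level (0.506% of all genes), and the direction rested on WT hilar 1225. The mean centred log2 CPM of the proliferation genes was 1.72 in that library and -0.37 and -1.05 in the other WT hilar libraries, against 0.04 to 0.45 in WT peripheral libraries, and it was lower in the hilar culture of 5 of 6 mice. In hilar organoids all 25 also had lower estimates in Ndr than in WT (median -1.73), as had 50.5% of all genes. Of the 25, 12 were at an unadjusted p under 0.05, against 6.54% of all genes (3.68% lower). All 13 mitochondrially encoded genes had lower hilar estimates in Ndr (median -0.79, 51.3% of all genes) and WT (median -1.38, 46.1% of all genes). Within Ndr this rested on Ndr peripheral 1219, where their mean centred log2 CPM was 1.83; in Ndr mice 1220 and 1224 it was higher in the hilar culture, by 0.28 and 0.69, and in all 3 WT mice it was lower. Of 12 genes of the amino acid response, 9 had higher hilar estimates over both genotypes (median 0.51), where 47.8% of all genes were lower. The mean of the 12 was higher in the hilar culture of 4 of 6 mice. The part that growth rate, mitochondrial content or stress had in the members' values was not tested.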

How the data were processed

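RNA was measured in 12 libraries from 6 mice, with a hilar and a peripheral culture of each; libraries were prepared with a TruSeq kit from total RNA, per the labels' protocols. The authors deposited raw read counts per gene, for which the submitters' processing notes name featureCounts and the build GRCm39; for aligner, annotation and strand setting nothing is stated in the sources used here. They also deposited normalized values (signal), with DESeq2 1.34.0 named in the same notes. Divided by the smallest value of a library, all of that signal table (100%) came out whole within 0.01, but 43.1% equalled the raw count and 99.4% a ComBat-seq rerun (sva 3.50.0, date as batch, genotype kept); neither labels nor headers mention that step, so it served only as an alternative.

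Names came from GENCODE M21, which named 52093 of 53700 identifiers, and all 241 listed symbols matched. edgeR 4.0.16 under R 4.3.3 fitted the counts (genes kept by filterByExpr, TMM scaling, robust quasi-likelihood; 4 group coefficients, 8 residual degrees of freedom), and the genotype effect over both regions from 6 mouse totals (4 residual degrees of freedom). The Benjamini-Hochberg adjustment ran over all genes tested, with 0.05 as the threshold. log2 CPM used a prior count of 2. The fits were tested on simulated counts that had the same spread for every gene and no effect of mouse. That test does not show how the fits perform on libraries that differ as much as these. An exact 2-sided permutation test of 3 against 3 cannot reach 0.05, so none was used for comparisons of that size. No permutation test was run for the paired region comparison over 6 mice either. Each comparison gives values for the 4 members with the smallest p, and for up to 2 genes of each further list; members shown for their range or spread were chosen after their values were seen. Members and lists were chosen with earlier results of these data known. Hilar and peripheral cultures of a number come from the same mouse per the labels, so the numbers pair them; deviations of paired libraries from group means correlated at r from -0.34 to 0.45. Alternatives were DESeq2 1.42.0, limma-voom and limma-trend (limma 3.58.1; pseudocount 1), RLE scaling, no filter on low counts, derivation date, replicate block, leaving out libraries and, added after seeing the data, summing near-identical copies. A planned comparison of protein sequences was not run.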

Additional observations from a re-analysis of the deposited data

How the results depend on the processing

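No member passed an adjusted p of 0.05 in any comparison with edgeR, DESeq2, limma-voom, RLE scaling, no filter on low counts, derivation date as a factor, the replicate block, copies summed, or any single library or mouse left out. The exception was limma-trend on the deposited normalized table, where 15 members passed for genotype over both regions (Hk2 among them), as did 7260 of all genes. Under that table the Hif1a difference between genotypes turned to 0.0348 in peripheral organoids and 0.0398 over both regions, and with date as a factor it was 0.10 over both regions; the cause was not tested. With the mouse as replicate block, 13 members in Ndr, 3 in WT and 15 over both genotypes had an unadjusted p under 0.05 between regions (8.46%, 0.48% and 5.06% of all genes), with medians of -1.0, -0.54 and -0.82, and no call changed; a genotype effect within a region cannot be blocked by mouse. Leaving out libraries moved the median between regions from -0.90 to -0.59 over both genotypes, the median between genotypes from -0.77 to -0.23 in hilar and from -0.51 to 0.18 in peripheral organoids, and the interaction median from -0.73 to 0.03. The Pfkfb4 difference between genotypes in peripheral organoids ran from -0.76 to 0.0468, its sign turning without WT peripheral 1221. With 3 mice per genotype and libraries that differ this much, large differences could be missed as well as small ones. In hilar organoids the proliferation gene Plk1 differed between genotypes by a log2 of -2.65 and did not pass (adjusted p = 0.750, edgeR).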
